A study of Mus musculus with 13 samples.

Results

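The windows of 7 genes that sustain pluripotency in mouse embryonic stem cells were examined for 2 repressive histone marks, H3K9me3 and H3K27me3. The windows were set on build mm9 by gene name, as stretches of 50 to 200 kb that hold each gene, and the rule for them uses no measured value. For comparison, the peak-bearing length of chromosomes 1 to 19 and X was divided into 51558 windows of 50 kb, 42963 of 60 kb and 12883 of 200 kb. These comparison windows were matched to the members in length only, not in gene or CpG content. The cells were J1 embryonic stem cells with an inducible Setdb1 knockout, cultured feeder-free with serum and LIF. Setdb1 is a methyltransferase that places H3K9me3. Peak lists came from chromatin immunoprecipitation and sequencing of H3K9me3 without tamoxifen (n = 4), H3K27me3 without tamoxifen (n = 2) and H3K27me3 with 2.5 µM tamoxifen (n = 2), where tamoxifen induces loss of Setdb1. The protocol names DMSO as the solvent control, while the labels of the untreated libraries name no agent. All groups carry the inducible allele. The labels name neither the recombinase driver, the number of clones nor the hours of treatment, and H3K9me3 with tamoxifen was not analysed here.

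H3K9me3 marks heterochromatin and silenced retroelements, and H3K27me3 is placed by the Polycomb repressive complex, largely at developmental genes that embryonic stem cells keep silent. Pou5f1 (Oct4), Sox2 and Nanog encode the transcription factors at the centre of the pluripotency network. Klf4 and Esrrb encode factors that help to hold cells in the naive state, Zfp42 (Rex1) encodes a zinc finger protein used as a marker of that state, and Prdm14 encodes a PR-domain protein of naive and germ cells.

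The lists held 7041 to 42725 peaks and give positions alone, so depth and peak height are unknown. H3K27me3 lists held 7041 and 17094 peaks in untreated replicates 1 and 2, and 15116 and 22265 with tamoxifen, so the groups overlap in length. Replicate 1 of each group was processed with MACS2 2.0.10 and the others with MACS2 2.1.0, and within each version the tamoxifen list was the longer. H3K9me3 replicate 4 lists no antibody and was placed by its title. Expression was not measured in these samples, so the stem cell label could not be set against marker genes, and the loss of Setdb1 could not be checked. Separate cultures are not stated, so p-values measure only the spread between these libraries, which may be technical. No mm9 gene annotation was used here. A distance is therefore counted from the edge of a window, and the distance from the gene inside it is at least that large.

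The starts of these genes differ in CpG dinucleotides, the sequence feature known to accompany Polycomb binding. RefSeq promoters of build GRCm38.p6 were matched for 6 of the 7 genes, all but Prdm14. The sequences below are the 250 bases before the first listed start site, 5′ to 3′ on the gene's strand, with each CpG in capitals. Sox2 and Klf4 are shown as the promoters richest in CpG, and Nanog and Zfp42 because their windows held H3K9me3 and no H3K27me3.
Sox2: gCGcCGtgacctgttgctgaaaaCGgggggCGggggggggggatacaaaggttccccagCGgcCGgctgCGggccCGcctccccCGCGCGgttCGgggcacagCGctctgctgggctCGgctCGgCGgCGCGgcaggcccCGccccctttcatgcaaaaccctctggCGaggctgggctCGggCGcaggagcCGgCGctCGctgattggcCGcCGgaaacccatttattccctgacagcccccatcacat
Klf4: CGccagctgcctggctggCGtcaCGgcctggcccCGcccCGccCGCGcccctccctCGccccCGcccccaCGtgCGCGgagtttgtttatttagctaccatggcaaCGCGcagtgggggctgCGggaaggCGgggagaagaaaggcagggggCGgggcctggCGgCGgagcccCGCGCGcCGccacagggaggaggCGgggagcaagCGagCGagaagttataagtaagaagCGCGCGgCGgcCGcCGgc
Nanog: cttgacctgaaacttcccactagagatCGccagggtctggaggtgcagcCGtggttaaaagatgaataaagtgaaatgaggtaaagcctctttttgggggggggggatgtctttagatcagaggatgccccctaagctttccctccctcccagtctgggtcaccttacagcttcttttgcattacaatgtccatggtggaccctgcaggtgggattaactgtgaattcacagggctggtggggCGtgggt
Zfp42: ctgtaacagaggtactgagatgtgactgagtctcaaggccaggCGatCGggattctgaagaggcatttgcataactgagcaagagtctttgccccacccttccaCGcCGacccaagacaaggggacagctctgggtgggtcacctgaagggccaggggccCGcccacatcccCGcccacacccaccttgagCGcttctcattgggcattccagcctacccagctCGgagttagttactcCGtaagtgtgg

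The Klf4 promoter held 32 CpG, a number reached by 4.58% of 32851 promoters. Sox2 held 27, reached by 8.56%. Zfp42 held 9 CpG, the 2 listed promoters of Pou5f1 held 8 and 6, those of Esrrb 6 and 3, and those of Nanog 3 and 2, while the median over all promoters was 6. The motif counted was CG, which reads the same on both strands and cannot overlap itself.

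**Figure D1:**
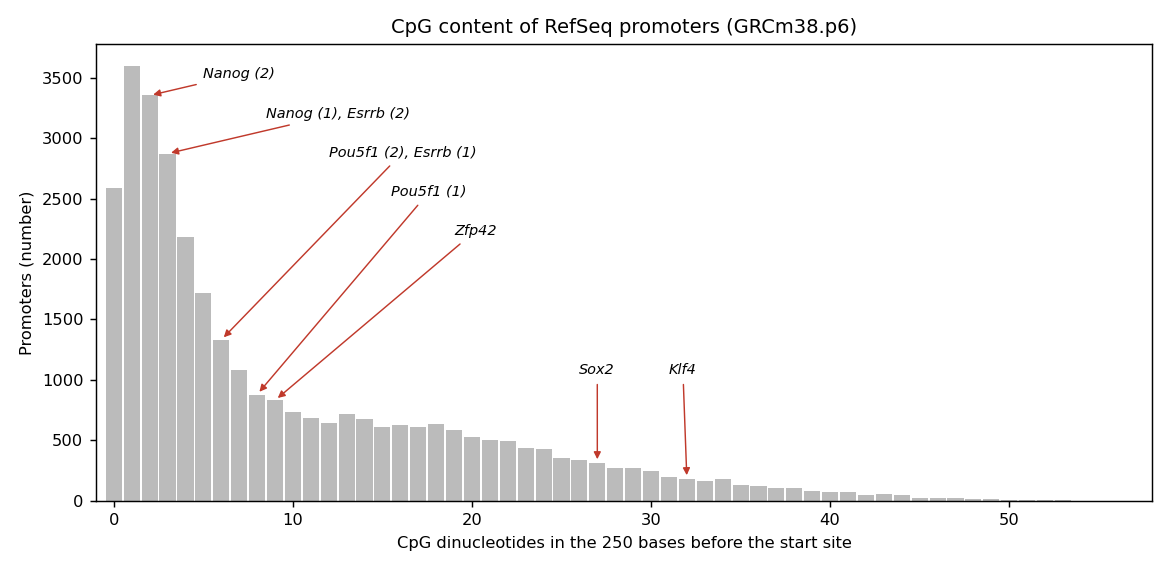
Number of RefSeq promoters (vertical axis) by their count of CpG in the 250 bases before the start site (horizontal axis), with arrows at the members; a number in brackets is the listed start site. Klf4 at 32 and Sox2 at 27 lie in the upper tail, and the other 4 genes with a promoter entry lie between 2 and 9.

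Without tamoxifen, H3K27me3 lay in the windows of Sox2, Esrrb and Prdm14 and in none of the other four. Both untreated lists held a peak in these 3 of 7 windows, where 9.49% of all 50 kb windows, 11% of 60 kb windows and 28.3% of 200 kb windows do so. The Sox2 and Prdm14 windows measure 60 kb and the Esrrb window measures 200 kb. With only the wider 50% of each list kept, both untreated lists held H3K27me3 in 2 windows, Esrrb and Prdm14. The Sox2 peak of untreated replicate 1, at 2378 bp, was narrower than that list's median of 2511 bp. H3K9me3 peaks of all 4 lists lay in the windows of Nanog, Esrrb and Zfp42, 3 of 7, against 19.3% of 50 kb, 22.5% of 60 kb and 53.6% of 200 kb windows. At least 1 H3K9me3 list held a peak in 5 of 7, which Sox2 and Prdm14 joined, against 53.8%, 59% and 89.9%. The Pou5f1 and Klf4 windows held no peak of either mark in any of the 8 lists. The Esrrb window alone, 1 of 7, held both marks in every list, as did 1.11% of 50 kb, 1.57% of 60 kb and 12.9% of 200 kb windows. That call rests on an H3K9me3 peak of 243 bp in replicate 1, and with peaks of at least 500 bp only Nanog and Zfp42 kept H3K9me3 in all 4 lists.

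**Figure D2:**
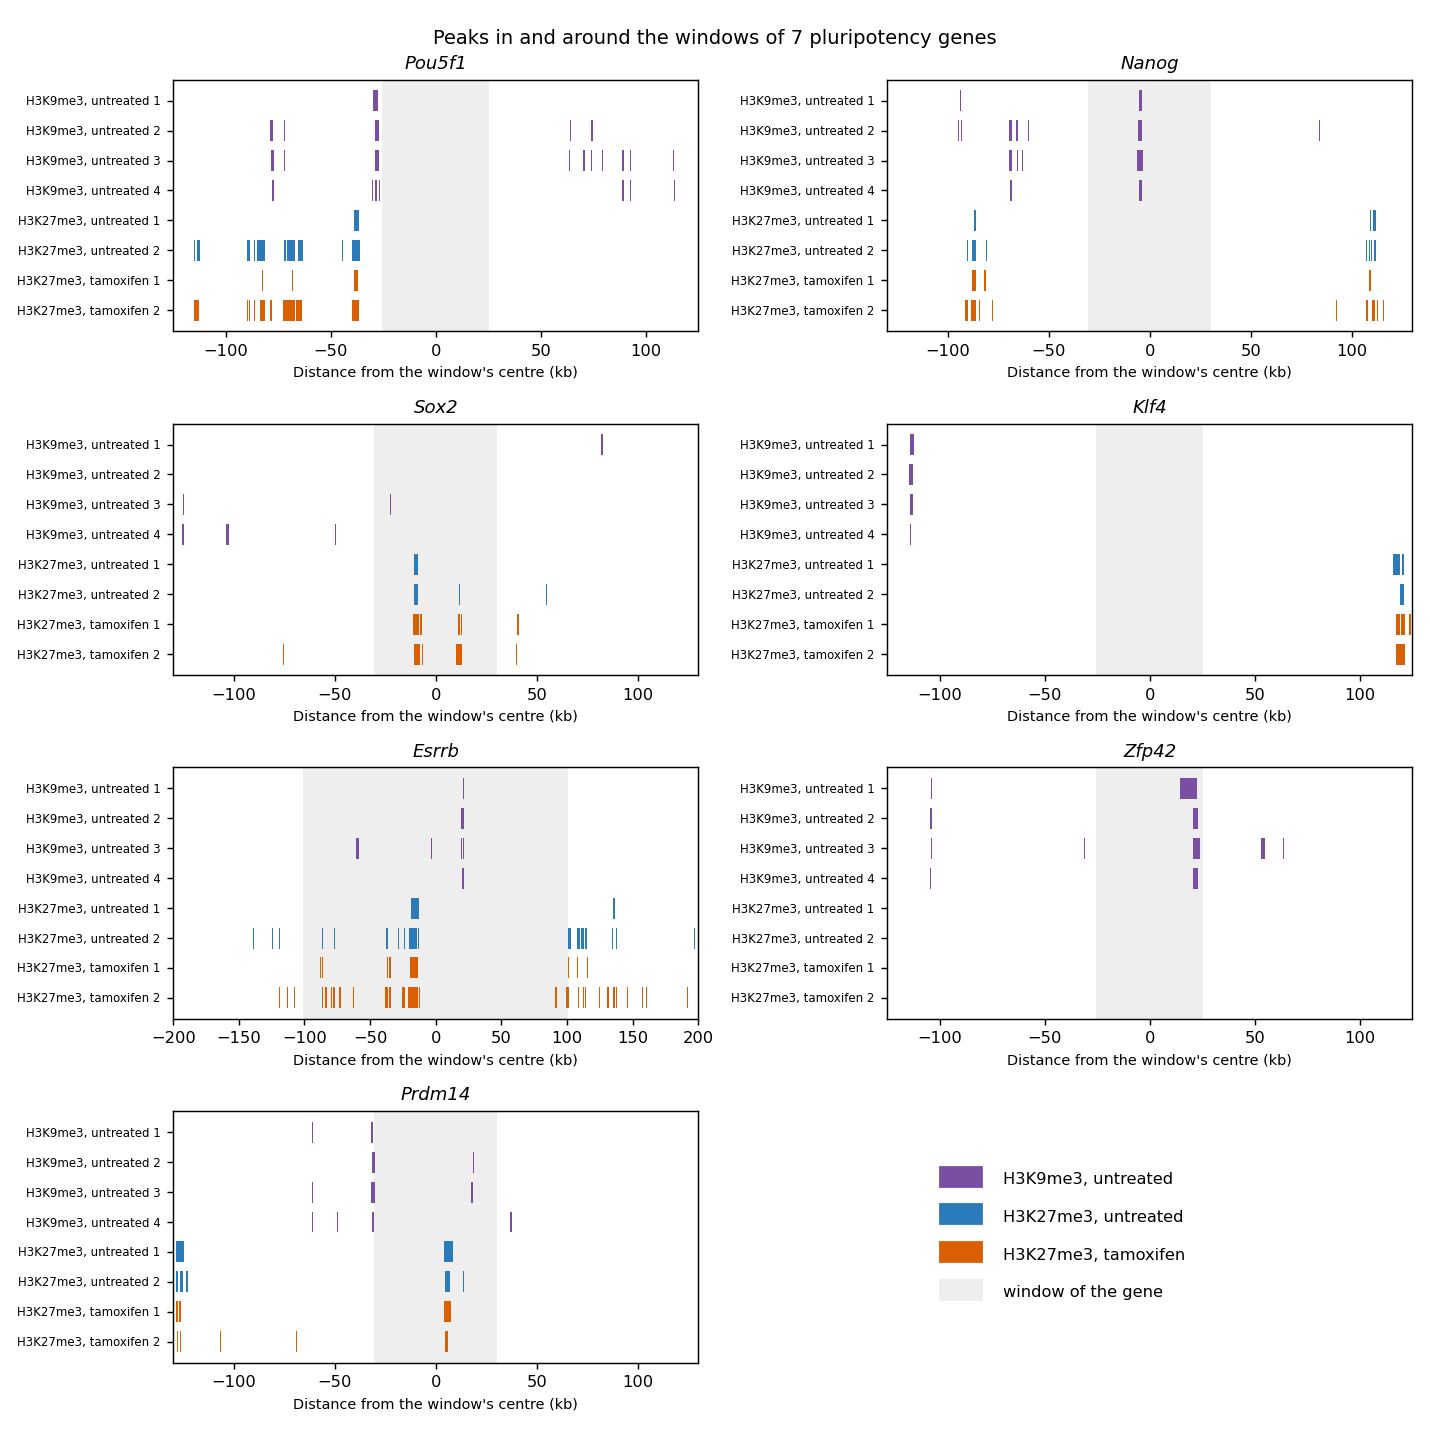
Peaks of the 8 lists (rows) in each window (grey) and 100 kb on both sides, by distance from the window's centre in kb; very narrow peaks are drawn slightly wider than they are so that they can be seen. H3K27me3 lies in the Sox2, Esrrb and Prdm14 windows in every list of that mark, and the Pou5f1 and Klf4 windows are empty.

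Pou5f1, on chromosome 17 in the window from 35620001 to 35670000, stood beside both marks without holding either. The nearest H3K9me3 peak lay below the window by 2.63, 1.99, 1.95 and 1.89 kb in replicates 1 to 4. These peaks lie in a merged region at chr17:35614703-35618111 that all 4 lists hold. Within it, the nearest peak of replicate 4, of 222 bp, does not overlap that of replicate 1. H3K27me3 came next, 11.4 and 11.2 kb below the window in untreated replicates 1 and 2 and 12.0 and 11.7 kb below it with tamoxifen. All 4 lists hold that H3K27me3 region, at chr17:35605030-35608820. The tamoxifen values lay farther out than the untreated ones by 0.575 kb (exact permutation p = 0.33, the smallest that 2 libraries against 2 allow), as they do in 8.46% of 50 kb and 8.23% of 60 kb windows, while 18.9% of 50 kb windows show the reverse. Above the window the nearest regions held by all lists of a mark began 236 kb away for H3K9me3 and 191 kb away for H3K27me3. In the RefSeq order Pou5f1 stands between H2-Q10, a class I histocompatibility gene, and Tcf19.

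Nanog carried H3K9me3 near the middle of its window in every library. The window on chromosome 6 from 122630001 to 122690000 held 1 peak in each H3K9me3 list, covering 1761, 1949, 3032 and 1465 bp in replicates 1 to 4. The 4 peaks overlap and merge into a region at chr6:122653649-122656680, whose middle is offset by -4.84 kb from the window's centre. Replicate 3, the longest list, had the widest of them. Apart from this region, the nearest H3K9me3 shared by all lists lay 314 kb below and 165 kb above the window. No H3K27me3 list had a peak in the window. The nearest lay 56.1 and 51.1 kb below it in untreated replicates 1 and 2, and 50.9 and 47.9 kb below it with tamoxifen. These peaks were 832 and 184 bp wide without tamoxifen and 1226 and 398 bp wide with it. Only those of untreated replicate 2 and tamoxifen replicate 1 overlap, so the distances run to different sites. The nearest region held by all 4 H3K27me3 lists, at chr6:122571582-122574163, ended 55.8 kb below the window. The mean distance with tamoxifen minus that without was -4.24 kb (exact permutation p = 0.33, the smallest possible), and 18.6% of 60 kb windows likewise had both tamoxifen lists nearer. It was -1.75 kb without untreated replicate 1, -6.73 kb without untreated replicate 2 and -2.71 kb without tamoxifen replicate 2, and with the wider 50% of each list the groups overlapped (-578 kb, exact permutation p = 0.667). The neighbours of Nanog in the RefSeq order are Dppa3, another gene of naive cells, and Slc2a3, a glucose transporter gene.

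Sox2 was 1 of the 3 members with H3K27me3 in the window, and the only one of them whose covered length was higher in both tamoxifen libraries than in both untreated ones. In the window on chromosome 3 from 34520001 to 34580000, H3K27me3 covered 2378 and 2105 bp in untreated replicates 1 and 2, and 5332 and 6258 bp with tamoxifen. The means were 5.80 ± 0.655 kb with tamoxifen and 2.24 ± 0.193 kb without (SD, n = 2 per group, exact permutation p = 0.33, again the smallest possible). The difference was 2.95 kb between the MACS2 2.0.10 libraries and 4.15 kb between the MACS2 2.1.0 libraries. Of the 60 kb windows with any H3K27me3 peak, 9.67% had both tamoxifen lists above both untreated ones and 7.39% the reverse, and of such 200 kb windows 11.1% and 9.18%. Tamoxifen lists were longer in each version, and the part of list length in this difference was not tested.

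Sox2 peaks fell on both sides of an unmarked middle. A region at chr3:34538701-34543284, with its middle offset by -9.01 kb from the window's centre, was held by all 4 H3K27me3 lists. A further region at chr3:34559990-34562974, 11.5 kb above the centre, was held by both tamoxifen lists and by untreated replicate 2. In untreated replicate 2 the latter was a single peak of 396 bp. With tamoxifen it was split into peaks of 1000 and 438 bp in replicate 1 and covered over 2985 bp in replicate 2. Because 1 untreated list held it, this region was not counted as present with tamoxifen only. It was counted so without untreated replicate 2, or when peaks under 500 bp were dropped. No other region shared by all H3K27me3 lists lay within 1.5 Mb, the nearest being 2253 kb below and 1538 kb above the window. H3K9me3 was found in the Sox2 window in replicate 3 alone, as a peak of 373 bp, and the other 3 lists had their nearest peak 52.0, 164 and 19.7 kb away.

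Klf4 lay farther from H3K9me3 than the other members by its median distance over the libraries. Its window on chromosome 4 from 55520001 to 55570000 held nothing, and the nearest H3K9me3 peak lay 87.4, 87.7, 87.5 and 88.6 kb below it. These peaks overlap and merge into a region at chr4:55430272-55432632. Among 50 kb windows, 20.7% had a median distance to H3K9me3 at least as large. H3K27me3 lay on the other side, 90.6 and 94.1 kb above the window without tamoxifen and 92.2 and 92.4 kb above it with tamoxifen. The merged region at chr4:55660554-55666655 was held by all 4 H3K27me3 lists. Within it, the nearest peak of untreated replicate 2 overlaps neither that of untreated replicate 1 nor that of tamoxifen replicate 1. The nearest peak of tamoxifen replicate 2, of 4016 bp, overlaps all of them. Treated and untreated distances overlapped, with a mean difference of -0.032 kb (exact permutation p = 1.0).

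Esrrb, whose gene of 160512 bp fills most of its window, carried the most H3K27me3 peaks in all, in the longest window. The window runs on chromosome 12 from 87680001 to 87880000. It held 1 and 7 H3K27me3 peaks in untreated replicates 1 and 2, and 5 and 14 with tamoxifen, over 6317, 11126, 7852 and 20239 bp in that order. The groups overlapped, and the order of the 4 libraries in peak number was also their order in list length. The mean difference of 5.32 kb in covered length (exact permutation p = 0.667) fell to -0.870 kb without tamoxifen replicate 2. The merged peaks made 16 regions, of which 9 were found in a single library. Among the 16, the region at chr12:87879110-87883043 runs past the window's upper edge and had a peak of tamoxifen replicate 2 alone inside the window. One region, at chr12:87758942-87767195 with its middle offset by -16.9 kb from the window's centre, was held by all 4 lists and was the widest, at 8254 bp.

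One Esrrb region was held by both tamoxifen lists and by no untreated list. It lies at chr12:87744449-87745838 and measures 1390 bp, the full width in tamoxifen replicate 1 and 944 bp in replicate 2. It was the only such region in any of the 7 windows, so 1 of 7 windows held one, against 1.3% of 50 kb, 1.54% of 60 kb and 4.79% of 200 kb windows. An untreated replicate 2 peak ended 858 bp before its start, within a region of 2567 bp that 3 lists hold. With peaks up to 1 kb apart merged, no window held a region of tamoxifen lists alone. None of the 4 windows without H3K27me3 in untreated cells had a peak of that mark with tamoxifen. Both tamoxifen lists held a peak in 3 of 7 windows, against 13% of 50 kb, 14.9% of 60 kb and 36% of 200 kb windows. Any H3K27me3 list did so in the same 3, against 26%, 28.9% and 53.4%.

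H3K9me3 in the Esrrb window took little space. The region at chr12:87799227-87801624 was held by all 4 lists, which covered 243, 2398, 1320 and 1017 bp of it. It stood 32.0 kb from the H3K27me3 region that all lists hold, and no peak of one mark overlapped a peak of the other in the window. Replicate 3 had 2 further H3K9me3 peaks, of 2044 and 450 bp, that no other list held. The former, at chr12:87719254-87721297, lay between H3K27me3 regions. Within the window, H3K27me3 peaks above the shared H3K9me3 region were found in tamoxifen replicate 2 alone, the longest H3K27me3 list. No untreated list had H3K27me3 in that part of the window. The region at chr12:87879110-87883043, which crosses the upper edge, was held by untreated replicate 2 and both tamoxifen lists. With the H3K27me3 region of all lists below, these 3 lists held the mark on both sides of the shared H3K9me3 region.

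Zfp42 held H3K9me3 in every list and lay farther from H3K27me3 than the other members in every list of that mark. The window on chromosome 8 from 44360001 to 44410000 held 1 H3K9me3 peak per list, of 8282, 2163, 3003 and 2109 bp in replicates 1 to 4. They overlap and merge into a region at chr8:44399164-44408702, with its middle 18.9 kb above the window's centre. Its lower part comes from replicate 1 alone, and the peaks of replicates 2 to 4 have their middles 21.8, 22.2 and 21.8 kb above the centre. The peak of replicate 1, from the other MACS2 version, was the widest H3K9me3 peak in any of the 7 windows. Without replicate 1 the widest was that of Nanog in replicate 3, at 3032 bp. A region 78.8 kb below the window, at chr8:44280555-44281234, was also held by all 4 lists. The nearest H3K27me3 peak was 908 kb away in untreated replicate 1 and 179 kb in replicate 2, against 122 and 350 kb with tamoxifen, and each of these peaks was under 500 bp wide. The nearest regions held by all 4 H3K27me3 lists began 1829 kb below and 1607 kb above the window. Zfp42 follows Triml2 and precedes Adam26b in the RefSeq order.

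Prdm14 held H3K27me3 in every list of that mark. In the window on chromosome 1 from 13080001 to 13140000 the mark covered 4754 and 2991 bp in untreated replicates 1 and 2, and 3397 and 1496 bp with tamoxifen. The groups overlapped, with means of 3.87 ± 1.25 kb and 2.45 ± 1.34 kb (SD, n = 2 per group, exact permutation p = 0.667). Within each MACS2 version the tamoxifen library was lower, by a difference of -1.36 kb in 2.0.10 and -1.50 kb in 2.1.0. The region all 4 lists hold, at chr1:13113938-13118691, has its middle 6.31 kb above the window's centre. Untreated replicate 2 had a second peak of 727 bp. H3K9me3 was found in the window as single peaks of 189 bp in replicate 2 and 716 bp in replicate 3. All 4 H3K9me3 lists hold a region at chr1:13077777-13079834, which ends 166 bp below the window and so lies just outside the limit.

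**Figure D3:**
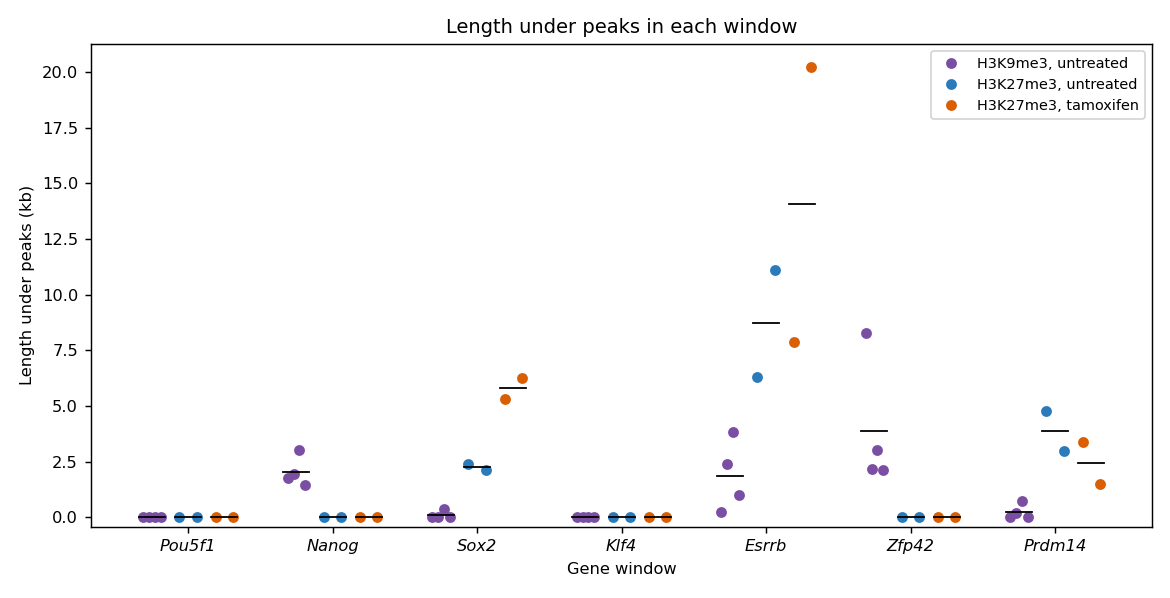
Length under peaks (kb, vertical axis) in each gene window (horizontal axis), with 1 point per library, replicate numbers running left to right, and a bar at the mean of each group. Both tamoxifen libraries lie above both untreated ones in the Sox2 window, and the H3K27me3 groups overlap in the Esrrb and Prdm14 windows.

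Across members, H3K9me3 of untreated cells lay nearer than H3K27me3 in 4 of 7 windows with no overlap between the libraries. These were Pou5f1, Nanog, Klf4 and Zfp42. The same order is shown by 57.2% of 50 kb windows and 56.7% of 60 kb windows, with 10.8% and 10.1% in the reverse order. The share of the members is thus close to that of all windows. Every H3K9me3 list, at 18037 to 42725 peaks, was longer than the untreated H3K27me3 lists of 7041 and 17094 peaks. The part of list length in this order was not tested. The difference in mean distance was 9.16 kb at Pou5f1, 53.6 kb at Nanog, 4.57 kb at Klf4 and 544 kb at Zfp42 (exact permutation p = 0.13 for each gene, the smallest that 4 libraries against 2 allow). With the wider 50% of each list the libraries overlapped at Klf4 (0.628 kb, exact permutation p = 0.8) and at Nanog (exact permutation p = 0.267). The Klf4 difference was 2.78 kb without untreated H3K27me3 replicate 2, and that of Zfp42 was 179 kb without untreated H3K27me3 replicate 1 and 908 kb without replicate 2. At Sox2 the order ran the other way by -59.1 kb with overlapping libraries (exact permutation p = 0.4), and at Prdm14 by -0.483 kb (exact permutation p = 0.8). Nanog and Zfp42 were the windows most alike in their distances over the 8 lists, with a Euclidean distance of 1.63 on the log10 scale of bp plus 1, followed by Pou5f1 and Klf4 at 3.72.

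**Figure D4:**
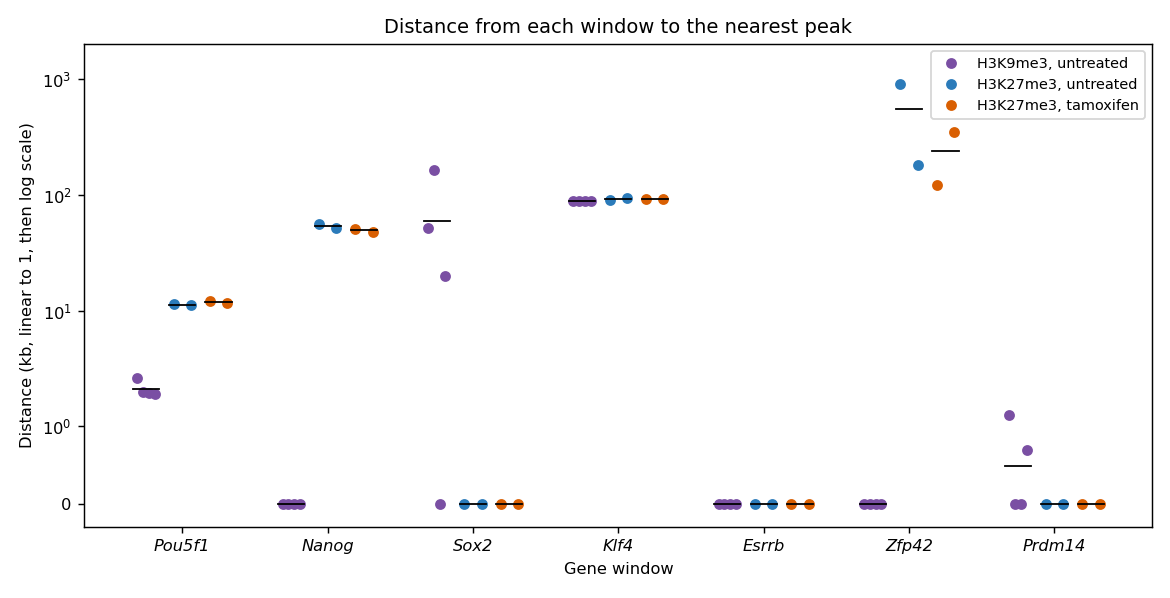
Distance from each window to the nearest peak (kb, linear up to 1 and logarithmic above), with 1 point per library and a bar at the mean of each group; 0 means that a peak lies in the window. With all peaks, H3K9me3 is nearer than untreated H3K27me3 without overlap at Pou5f1, Nanog, Klf4 and Zfp42. This order is also shown by 57.2% of 50 kb and 56.7% of 60 kb windows. It was lost at Nanog and Klf4 with the wider 50% of each list. The H3K27me3 distances of Zfp42 spread from 122 to 908 kb.

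The wider neighbourhood was taken as each window with 1 Mb on both sides. There H3K27me3 covered 76.8 ± 33.6 kb around Pou5f1 and 62.1 ± 12.7 kb around Esrrb in untreated cells (SD, n = 2). Around Zfp42 it covered 1.04 ± 0.846 kb, around Sox2 2.66 ± 0.395 kb and around Klf4 3.16 ± 1.75 kb. Nanog had 12.5 ± 10.0 kb and Prdm14 9.50 ± 3.35 kb. Neighbours in this order overlapped in their libraries for Pou5f1 and Esrrb, Nanog and Prdm14, and Klf4 and Sox2. With tamoxifen the covered length was higher in both libraries than in both untreated ones around Sox2, at 5.64 and 8.61 kb against 2.38 and 2.94 kb, and around Klf4, at 4.72 and 6.76 kb against 4.39 and 1.92 kb (exact permutation p = 0.33 for each gene, no smaller value being possible). These 2 of 7 compare with 6.82% of windows of 2050 kb, while 13.6% had both tamoxifen lists lower. Around Klf4 the groups overlapped with peaks of at least 500 bp (exact permutation p = 0.667), which leaves 1 of 7. The Klf4 difference of 2.58 kb was 0.328 kb within MACS2 2.0.10, 4.84 kb within MACS2 2.1.0, 1.35 kb without untreated replicate 2 and 1.56 kb without tamoxifen replicate 2. Around the other five the groups overlapped. The Sox2 window itself accounts for 5332 and 6258 bp of its tamoxifen values and for 2378 and 2105 bp of its untreated ones.

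**Figure D5:**
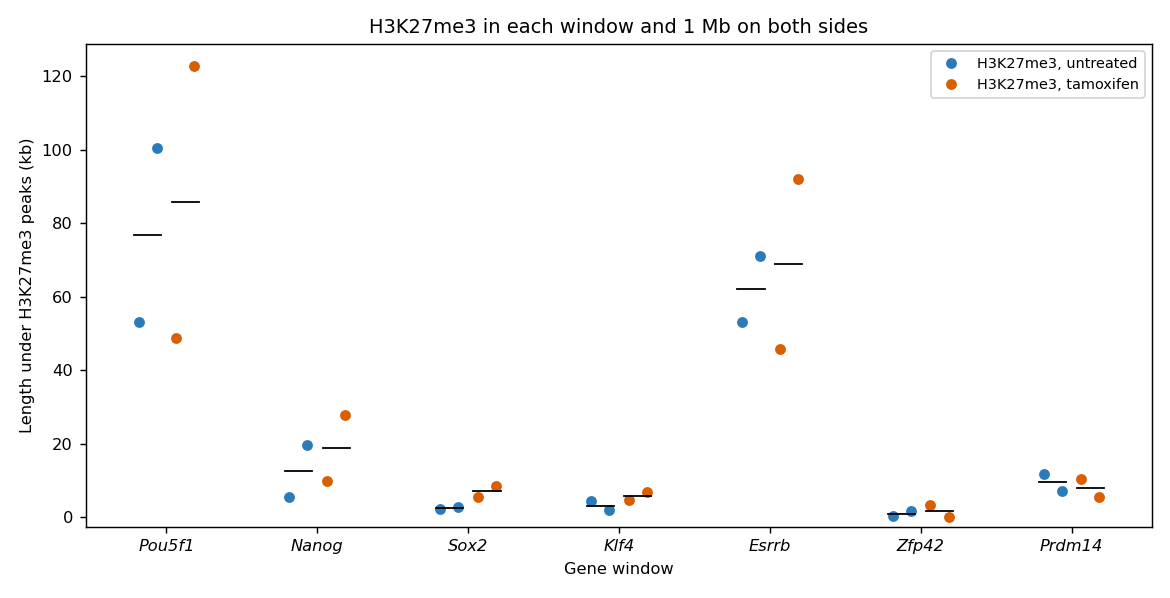
Length under H3K27me3 peaks (kb, vertical axis) in each window with 1 Mb on both sides (horizontal axis), with 1 point per library and a bar at the group mean. Pou5f1 and Esrrb lie in neighbourhoods with at least 45.9 kb of the mark in every library, and Sox2, Klf4 and Zfp42 in neighbourhoods with under 9 kb in every library.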

How the data were processed

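Per the submitters' processing notes, reads were aligned to mm9 with Bowtie 0.12.7 and peaks came from MACS2 2.0.10 or 2.1.0. Each library's deposited list names where peaks lie (chromosome, start, end) and gives no other value, so no measured unit beyond position in bp is in the files. For the threshold, calling mode and control, the setting is not given in the sources used here. Of 13 samples 8 had a list, and the 5 inputs were not analysed here. Groups came from the titles, and unnumbered libraries were called replicate 1.

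The rule for the windows uses gene names alone, but the genes and lists were chosen with earlier results of these data known. A window held a list if at least 1 bp lay under a peak, and overlapping or touching peaks were merged into regions. Background shares count all windows of equal length between the first and last peak of each chromosome. Comparisons by covered length in a window, and the background for groups that do not overlap, were added after the values were seen. All 7 members are named in each result, and other genes only as direct neighbours of a member. Other pluripotency genes were not placed, since no mm9 annotation was used here. Means of groups were tested by exact permutation, two-sided, taking double the smaller one-sided p. Computation used Python 3.11.15, NumPy 2.4.6, pandas 2.3.3 and Matplotlib 3.10.9, and the code was tested on simulated data. Alternatives were narrower and wider windows, wider peaks, more overlap, merging, each MACS2 version and leaving out each library.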

Additional observations from a re-analysis of the deposited data

Results flagged for a closer look

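Among the 4 H3K9me3 libraries, 3 values stood apart from the rest of their group by a gap test at the 95% level, out of 14 quantities examined, of which 9 varied between libraries. Chance flags about 5% of groups of continuous values. Replicate 1 had 8282 bp under its peak in the Zfp42 window, against 2109 to 3003 bp in the other libraries. Replicate 3 alone had H3K9me3 in the Sox2 window, over 373 bp against 0 in the others, and with 3 libraries at 0 the gap test flags any value above 0. Replicate 1 had its nearest peak 2.63 kb from the Pou5f1 window, against 1.89 to 1.99 kb. Replicate 1 is the 1 H3K9me3 library of MACS2 2.0.10, and replicate 3 has the longest list.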

How the results depend on the processing

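Of 63 recomputed counts of windows, 49 stayed within 1.5 times the reported one, and all 14 others are given here. With the wider 50% of each list, H3K9me3 was in every library in 1 window (Zfp42) and in any library in 3. Windows widened by 50 kb on both sides gave 5 with H3K9me3 in every library and 5 with H3K27me3 in any. The middle 50% of each window gave 2 with any H3K9me3, and the MACS2 2.0.10 library alone gave 3. Regions with tamoxifen only were found in 2 windows, Sox2 and Esrrb, with peaks of at least 500 bp, with the wider 50% of each list and within each MACS2 version, in 1 to 2 windows when a library was left out, and in 0 with peaks merged over 1 kb. Where only 1 tamoxifen list remained, a region in that list alone counted.

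Of 223 recomputed differences for single genes, 200 were counted as unchanged in sign, 3 moved from 0 and 20 changed sign. The 200 include differences that were 0 and stayed 0. They also include the replicate block, which gives the main value by design, so the number overstates stability. No difference could reach a p-value below 0.13 by exact permutation, the smallest that 4 libraries against 2 allow. Tamoxifen minus untreated distance to H3K27me3 became 1.69 kb at Klf4 with MACS2 2.0.10, and 0.27 kb at Zfp42 with peaks of at least 500 bp and 171 kb with MACS2 2.1.0. Leaving out 1 library gave -1.82 to 1.76 kb at Klf4 and -672 to 56.9 kb at Zfp42. At Sox2 the untreated H3K27me3 minus H3K9me3 distance was 615 kb with the wider 50% of each list. Covered length within 1 Mb changed by -4.37 kb at Pou5f1 and -7.29 kb at Esrrb with MACS2 2.0.10, and by -1.45 kb at Zfp42 with MACS2 2.1.0. Leaving out 1 library gave ranges of -28.1 to 45.8 kb at Pou5f1, -2.74 to 15.2 kb at Nanog, -16.3 to 29.8 kb at Esrrb, -0.852 to 2.44 kb at Zfp42 and -3.92 to 1.01 kb at Prdm14, and for the Esrrb window itself -0.870 to 11.5 kb. The causes were not tested.

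The labels share the number 2 between H3K27me3 groups and the number 1 was given here, so the libraries share only a number. With the replicate block the Sox2 window difference was 3.55 kb (exact sign-flip p = 0.5, the smallest 2 pairs allow), the same value as without it. Peak presence depends on read depth, which is unknown, so an empty window means no called peak.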
